A study of Mus musculus with 18 samples.

Results

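The 10 genes described here handle the amino acid arginine and the polyamines made from it in mouse spleen: Arg1, Arg2, Nos2, Slc7a1, Slc7a2, Ass1, Asl, Odc1, Oat and Sat1. They were taken by symbol from the 19326 gene lines of the deposited expression table, and all 10 were found there. The set was chosen on measured values: it was proposed with the high Arg2 level of the mice given the AOS microbiota, in these same libraries, already known. For that reason the Arg2 values that involve those mice, and all values of the comparison that showed it, are given as description without a test. RNA sequencing covered 18 libraries of spleen from ICR mice, an outbred strain, aged 10 weeks, in 6 groups of 3. The control group had no treatment named, and the AOS group received 10 mg/kg AOS, an abbreviation that the labels do not spell out. HS mice had a high fat diet and STZ (streptozotocin, a drug toxic to insulin-producing beta cells), and HS_AOS mice had the same with 10 mg/kg AOS. HS_AOSFMT mice had diet and STZ with a faecal microbiota transplant (FMT) labelled as coming from 10 mg/kg AOS, and HS_conFMT mice had diet and STZ with control FMT. No group had the diet without STZ, STZ without the diet, or FMT without both, so these parts cannot be told apart. The labels give no sex and do not say that the 3 libraries of a group are separate animals. The tests therefore measure how much these libraries differ among themselves. Whether that spread lies between animals or is technical was not tested. For the haemoglobin gene Hbb-bs it was 63.37 to 8414 FPKM (explained below) within AOS and 274.76 to 16503 within HS_AOSFMT. Within HS it was 25894 to 32959. The title asks whether the AOS microbiota rescues the spleen.

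Arginine is a branch point. Arginases (Arg1 in the cytosol, Arg2 in mitochondria) split it into ornithine and urea, whereas inducible nitric oxide synthase (Nos2) turns it into nitric oxide and citrulline, and Ass1 and Asl rebuild arginine from citrulline. Ornithine goes either to proline and glutamate through Oat or, through Odc1, to putrescine and the polyamines spermidine and spermine, which cells need to divide and to make protein; Sat1 acetylates polyamines for breakdown and export. In spleen this chemistry is best known from macrophages, which use arginase and Nos2 in different activation states, from myeloid cells that limit T cells by depleting arginine, and from dividing red cell precursors.

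Levels are in FPKM, which counts fragments relative to the length of the transcript and the mapped total, so they can be set against each other between genes per length. Changes are differences of group means of log2(FPKM + 1), which understate the change of low genes, with their standard error (SE). Summed FPKM ran from 666441 to 831448 per library, and the depth in reads is unknown. The share of haemoglobin genes in this sum lay between 12.9% and 17.6% for HS_AOSFMT libraries and between 14.7% and 35.5% for the others. Of 9 marker lists, B cell and T cell markers were present in every library, as a spleen would have them. Pancreatic acinar markers summed to 17017 FPKM in HS 1 and 18624 in HS_AOS 1 against 3012 at most elsewhere, and neutrophil markers to 15487 in control 1 against 4212 at most elsewhere. With these 3 libraries set aside, the number of the 10 genes called was the same in every comparison.

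Odc1 and Sat1 stood at opposite ends of polyamine turnover and were the most abundant of the 10 genes per length. They followed erythroid and T cell markers across libraries with opposite signs. Their promoter sequences are therefore shown (RefSeq, GRCm38.p6, bases upstream of the annotated start, read in the direction of the gene). Odc1 lies at chr12:17544623-17544793 on the plus strand for the bases printed, and Sat1 at chrX:155216450-155216699 on the minus strand. Capitals mark matches to the GC box GGGCGG on either strand.
Odc1: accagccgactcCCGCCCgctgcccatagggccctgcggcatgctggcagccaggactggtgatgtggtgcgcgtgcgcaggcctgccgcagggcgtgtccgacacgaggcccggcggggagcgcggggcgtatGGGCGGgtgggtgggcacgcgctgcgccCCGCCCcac
Sat1: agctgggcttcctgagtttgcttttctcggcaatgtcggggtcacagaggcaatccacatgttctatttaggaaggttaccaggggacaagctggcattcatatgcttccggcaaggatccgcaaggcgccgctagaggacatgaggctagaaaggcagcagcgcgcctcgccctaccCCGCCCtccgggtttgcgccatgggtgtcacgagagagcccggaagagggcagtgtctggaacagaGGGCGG
Over the 250 bases before the RefSeq start, Odc1 held 4 GC boxes and Sat1 held 2, and 32.7% of the 32851 promoters in the table held at least 1. For Odc1 only 171 of these bases are printed. The rest lie within the Odc1 gene body given below, which comes from another annotation, and not all 4 GC boxes are in the printed part. GC made up 80% of the Odc1 window and 59.6% of the Sat1 window, against a median of 52.4% over all promoters. The Odc1 window also held 1 match to TGACG, the core of a cAMP response element, which 17.8% of promoters held. This match is not in the printed part. Neither window held TATGACTAA, the polyamine response element described for Sat1, which 0.0944% of promoters held. Bases farther upstream were not searched, so this does not show whether Sat1 has the element. These are letter matches on both strands and say nothing of binding.

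Setting aside the values that led to the choice of the set, 1 of these genes passed a test in any of the comparisons made, Sat1 in HS_AOSFMT against control. That test shares its 3 HS_AOSFMT libraries with the comparison that led to the choice, so it is not independent of it. A gene is called where limma's Benjamini-Hochberg adjusted p over the 12969 tested genes is under 0.05. Of the 10 genes, 8 were tested; Nos2 and Slc7a2 did not reach 1 FPKM in 3 libraries. Diet and STZ against control called 0 of the 8, beside 0.0154% of all tested genes, and at an unadjusted p under 0.05 there were 0 of the 8 beside 6.40%. AOS under diet and STZ (HS_AOS against HS) called 0 of the 8 beside 0% of all genes, with 0 unadjusted beside 5.20%. Control FMT (HS_conFMT against HS) called 0 of the 8 beside 0.00771%, with 1 unadjusted (Arg2) beside 6.32%. AOS alone against control also called 0 beside 0.00771%, with 1 unadjusted (Asl) beside 11.3%. The interaction, which sets the AOS effect under diet and STZ against that without, called 0 beside 0.00771%, with 0 unadjusted beside 5.97%.

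The comparisons with HS_AOSFMT share those 3 libraries, so their results are not independent of each other. The threshold was passed by 1 of the 8 against HS (beside 9.23% of all tested genes), 1 against HS_conFMT (beside 5.85%), 1 against HS_AOS (beside 8.57%) and 2 against control (beside 12%). Arg2 is counted in all 4, and its high level there led to the choice of the set, so nothing is read from these counts; without it they are 0, 0, 0 and 1, and the comparison with HS stays a description for every gene. These called shares are sensitive to scaling: of the genes called against control 80.6% were higher in HS_AOSFMT as deposited, and 55.6% to 64.1% under 3 other scalings. The corresponding figures were 87.6% and 63.2% to 71.0% against HS, 82.2% and 52.3% to 64.5% against HS_conFMT, and 75.0% and 47.9% to 64.0% against HS_AOS. The median change of the 8 genes was 0.06 against HS, 0.02 against HS_conFMT, 0.13 against HS_AOS and 0.06 against control, where the medians of all tested genes were 0.10, 0.06, 0.06 and 0.09.

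**Figure D1:**
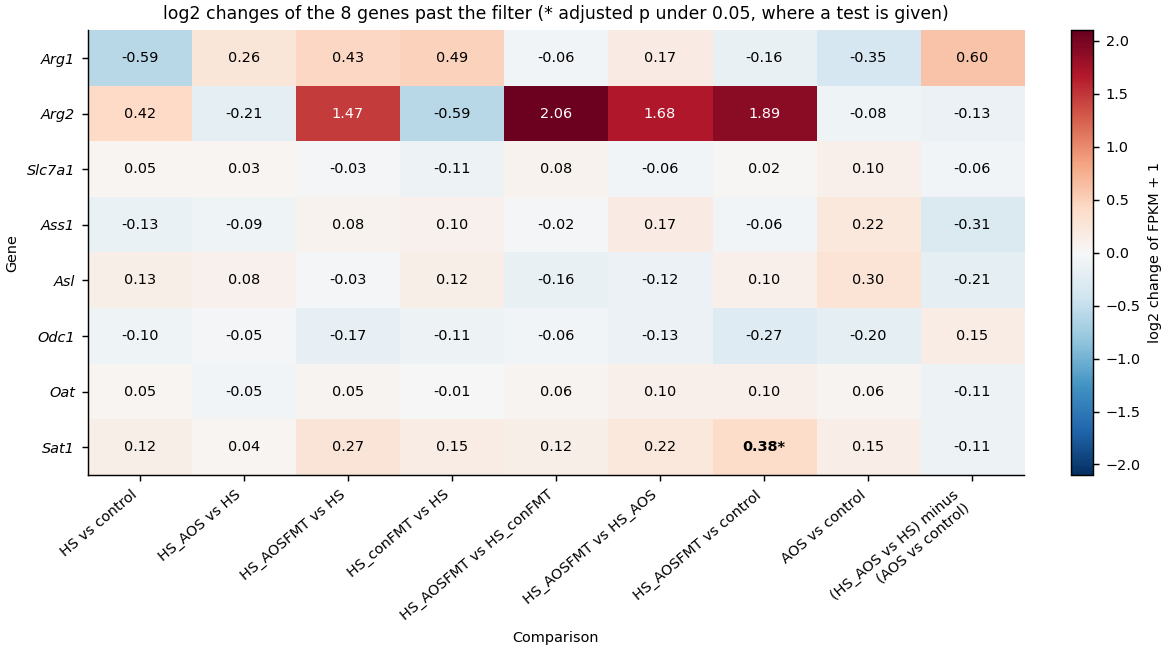
The log2 change of FPKM + 1 for the 8 tested genes (rows) in the 9 comparisons (columns), with blue for lower and red for higher in the group named first; an asterisk marks an adjusted p under 0.05 where a test is given, which excludes Arg2 in the HS_AOSFMT columns and the whole column HS_AOSFMT vs HS. Arg2 has changes of 1.47 to 2.06 in the HS_AOSFMT columns, and the asterisk is at Sat1 in HS_AOSFMT vs control, with 0.38.

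Arg2 (chr12:79130777-79156301 on GRCm38, plus strand) encodes the mitochondrial arginase. It stood at 13.25, 10.52 and 12.48 FPKM in HS_AOSFMT. It stood at 3.07, 3.45 and 4.70 in HS, at 2.32, 2.61 and 4.57 in HS_AOS, and at 1.94, 2.50 and 1.94 in HS_conFMT. Without diet and STZ it stood at 2.17, 2.14 and 3.35 in control and at 1.70, 2.37 and 3.01 in AOS. All 3 HS_AOSFMT libraries lay above all 15 others, the highest of which was HS 3 at 4.70, while the other 5 groups overlapped in large part. In order of mean level the groups were HS_AOSFMT (12.1 ± 1.41, SD, n = 3), HS (3.74 ± 0.853), HS_AOS (3.17 ± 1.22), control (2.55 ± 0.690), AOS (2.36 ± 0.655) and HS_conFMT (2.13 ± 0.323). Apart from the step below HS_AOSFMT, neighbours in this order overlapped. The ratio of means was 3.23 against HS, 3.82 against HS_AOS, 4.73 against control and 5.68 against HS_conFMT. On the log2 scale the changes were 1.47, 1.68, 1.89 and 2.06 in that order, each with an SE of 0.20.

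Where HS_AOSFMT was not involved, Arg2 did not pass the test. In HS against control its change was 0.42 (SE 0.20, adjusted p = 0.796), with a 95% interval of -0.01 to 0.85. All 3 HS_conFMT libraries lay below all 3 HS libraries, with a change of -0.59 (SE 0.20, 95% interval -1.02 to -0.16), which did not pass after adjustment (adjusted p = 0.720). AOS moved it by -0.08 without diet and STZ (adjusted p = 0.897) and by -0.21 with them (adjusted p = 0.999).

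Other measures were also shifted in HS_AOSFMT, though each range below overlapped that of the other libraries. In whole tissue fewer cells of a type and less RNA per cell cannot be told apart. The T cell markers (7 of 8 in the file) summed to 394.92 to 490.45 FPKM in HS_AOSFMT and to 195.46 to 412.89 elsewhere. The erythroid markers (10 of 10) summed to 57184 to 98708 against 65504 to 201698, and the acinar markers (10 of 10) to 2.79 to 43.79 against 9.33 to 18624; no marker of these lists was at 0 in any library. The erythroid sum, also used as a covariate below, takes in Hbb-bs, whose group means ran from 2275 in HS_conFMT to 30060 in HS. It therefore did not track haemoglobin alone. HS_conFMT 1 had a larger haemoglobin share than HS_AOS 3 (35.5% against 33.1%) but a smaller erythroid sum (194600 against 201698). HS_conFMT 2 had a haemoglobin share of 14.7% and a T cell sum of 412.89 FPKM, both within the HS_AOSFMT range, and its Arg2 was 2.50. Its acinar sum of 49.09 FPKM lay above the HS_AOSFMT range for that list. AOS 3 had a haemoglobin share of 17.2% and an Arg2 of 3.01. Its T cell sum of 320.38 FPKM and its acinar sum of 437.92 FPKM lay outside the HS_AOSFMT ranges. HS_conFMT 2 and AOS 3 were picked after their values were seen. Single libraries cannot separate cell content from group, so nothing is concluded from them. With the acinar marker level as a covariate, the Arg2 change against HS was 1.12 in place of 1.47. The part of these cells in the Arg2 level was not tested beyond such fits. With the list of red pulp and other macrophages, Arg2 had r = 0.04 over the 18 libraries. For deviations from the group means r was 0.795, the largest of the 9 lists, against 0.09 for T cell and -0.15 for erythroid markers. These deviations were not tested.

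**Figure D2:**
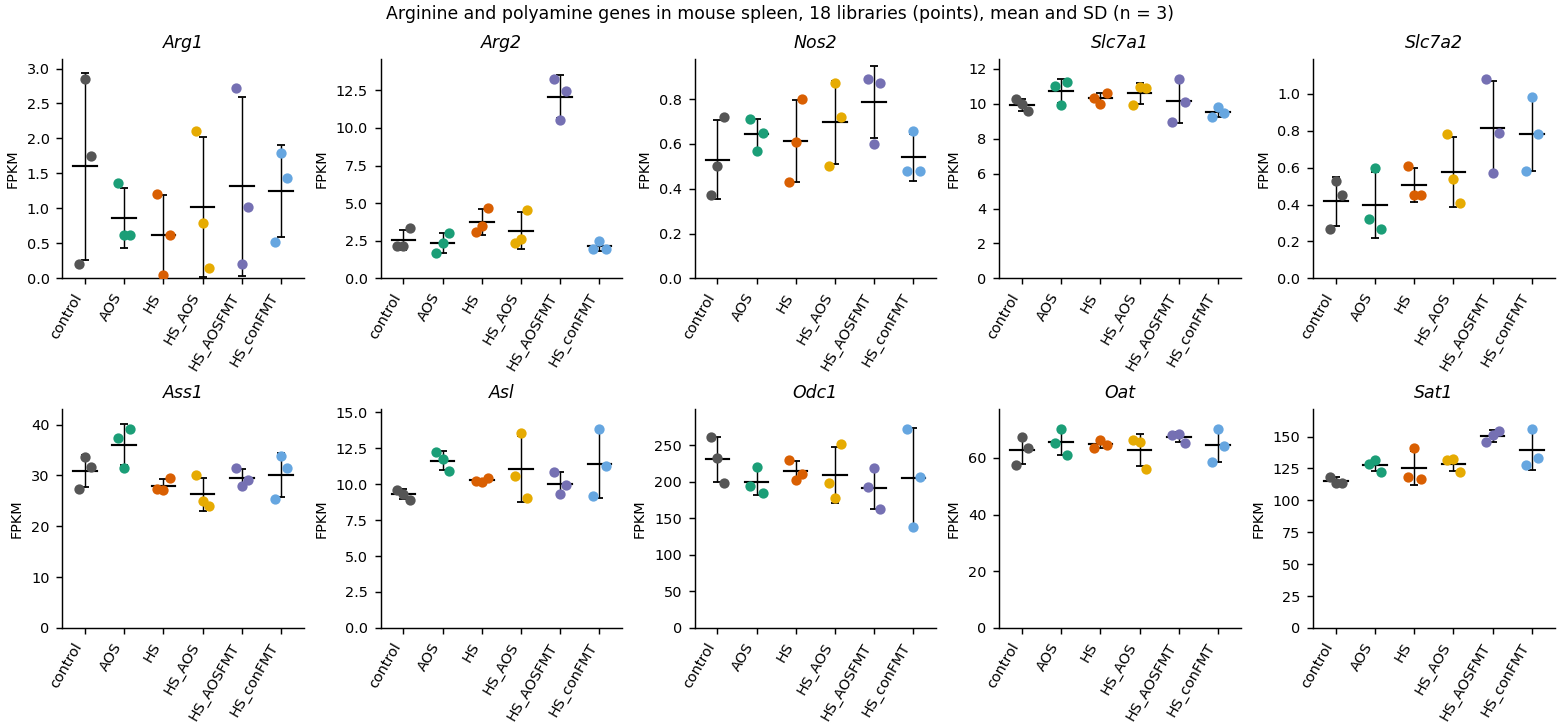
FPKM of each of the 10 genes in the 18 libraries; points are libraries, the long line is the group mean and the bars are the SD of 3 libraries, with an own axis from 0 in each panel. Arg2 in HS_AOSFMT lies between 10.52 and 13.25 with all other libraries at 4.70 or below, and the groups overlap for most other genes.

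Arg1 (chr10:24915221-24927484, minus strand), the cytosolic arginase of the liver urea cycle and of some macrophages, was low and uneven. It stood at 0.20, 2.85 and 1.75 FPKM in control, 1.36, 0.62 and 0.62 in AOS, and 1.2, 0.05 and 0.62 in HS. It stood at 2.11, 0.79 and 0.15 in HS_AOS, 2.72, 0.21 and 1.02 in HS_AOSFMT, and 0.52, 1.79 and 1.43 in HS_conFMT. High and low libraries occurred in most groups and all groups overlapped, so the 57-fold span from HS 2 to control 2 was not along the groups. Changes ran from -0.59 in HS against control (SE 0.48, adjusted p = 0.919) to 0.60 for the interaction (SE 0.68, adjusted p = 0.937). Per length, Arg2 made up 83.0% to 98.0% of the summed FPKM of both arginases in HS_AOSFMT, 71.9% to 98.6% in HS, 52.4% to 96.8% in HS_AOS and 42.9% to 91.6% in control. In HS_conFMT (57.6% to 78.9%) and AOS (55.6% to 82.9%) all shares lay below those of HS_AOSFMT, for AOS narrowly, which is given as description.

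The Arg1 level moved with liver transcripts. The 6 hepatocyte markers, which include albumin (Alb) and Cps1, the entry enzyme of the urea cycle, summed to 9.30 to 194.86 FPKM, and none was at 0 in any library. Alb had the highest mean of the 6 in every group. Serpina1a did not follow it, with means of 3.61 in control and 5.43 in AOS where Alb had 70.0 and 14.3. Over the 18 libraries Arg1 correlated with the summed level of the 6 markers (log2 scale) at Pearson r = 0.828 and Spearman rho = 0.822 (two-sided permutation tests, adjusted p = 0.0012 and 0.0024 over 90 relations). Without the 2 libraries farthest from the median marker level r was 0.773, and for deviations from the group means it was 0.841. HS_AOSFMT 1, with Arg1 at 2.72, had Cps1 at 2.21 and Otc, another urea cycle enzyme of liver, at 1.03; HS_AOSFMT 2, with Arg1 at 0.21, had Cps1 at 0.25 and Otc at 0.06. HS_AOSFMT 3 did not follow this, with Arg1 at 1.02, Cps1 at 0.03, Otc at 0.07 and a hepatocyte sum of 11.45. The 3 genes most like Arg1 over the 18 libraries were Itih4 (r = 0.880), Cfi (r = 0.878) and Serpinc1 (r = 0.877), all genes of secreted plasma proteins that liver makes in quantity. Arg2 did not share this pattern (r = -0.04 with Arg1).

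Nos2 (chr11:78920787-78960254, plus strand) stood near the lower end of detection, between 0.37 in control 1 and 0.89 in HS_AOSFMT 1. Its values were 0.37, 0.50 and 0.72 in control, 0.71, 0.57 and 0.65 in AOS, 0.43, 0.61 and 0.80 in HS, 0.50, 0.87 and 0.72 in HS_AOS, 0.89, 0.60 and 0.87 in HS_AOSFMT and 0.48, 0.66 and 0.48 in HS_conFMT. All groups overlapped. In a fit without the filter on low values Nos2 was called in 0 of the 9 comparisons, and in HS_AOSFMT against control its change was 0.23 (SE 0.11, adjusted p = 0.206). Among other enzymes that use arginine, the endothelial synthase Nos3 stood at 2.97 ± 0.107 FPKM in HS_AOSFMT (SD, n = 3) and 1.86 ± 0.317 in control, with groups that did not overlap, a change of 0.48 (SE 0.15) and an adjusted p of 0.0538.

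For uptake, the cationic amino acid transporter Slc7a1 (chr5:148327410-148399904) was among the steadiest of the 10. Its level ran from 8.95 in HS_AOSFMT 1 to 11.42 in HS_AOSFMT 2, so that the span of all 18 libraries, 1.28-fold, lay within a single group. Group means lay between 9.51 ± 0.271 in HS_conFMT and 10.7 ± 0.701 in AOS (SD, n = 3). The widest change was -0.11 in HS_conFMT against HS (SE 0.08, adjusted p = 0.809), where the groups did not overlap. Slc7a2 (chr8:40862396-40922308), the transporter linked to arginine supply of macrophages, was low. It stood at 1.08, 0.57 and 0.79 in HS_AOSFMT, 0.58, 0.98 and 0.78 in HS_conFMT, and 0.27, 0.53 and 0.45 in control. The 3 HS_AOSFMT values lay above the 3 control values, but without the filter the change of 0.35 (SE 0.13) did not pass (adjusted p = 0.1001).

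Neither gene of arginine synthesis passed a test in any comparison. Ass1 (chr2:31470207-31520672), argininosuccinate synthase, stood at 37.43, 31.56 and 39.23 in AOS and 27.41, 33.61 and 31.61 in control. Asl (chr5:130011258-130029247), argininosuccinate lyase, stood at 12.22, 11.75 and 10.94 in AOS and 9.63, 9.32 and 8.93 in control. The AOS and control groups overlapped for Ass1 and not for Asl. The changes were 0.22 for Ass1 (SE 0.12, adjusted p = 0.487) and 0.30 for Asl (SE 0.13, unadjusted p = 0.039, adjusted p = 0.419), with 36.1 ± 4.01 and 11.6 ± 0.647 FPKM in AOS (SD, n = 3). Under diet and STZ, Ass1 means lay between 26.3 ± 3.24 in HS_AOS and 30.2 ± 4.33 in HS_conFMT, and Asl means between 10.04 ± 0.782 in HS_AOSFMT and 11.4 ± 2.36 in HS_conFMT (SD, n = 3). The Ass1 interaction was -0.31 (SE 0.16, adjusted p = 0.869).

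Ornithine use was dominated per length by Odc1 (gene body chr12:17544794-17551505), the rate-limiting enzyme of polyamine synthesis, with 208.3 FPKM on average and a 1.98-fold range. It stood at 260.8, 232.16 and 198.22 in control, 193.51, 220.16 and 185.16 in AOS, and 229.5, 202.77 and 210.01 in HS. It stood at 198.49, 177.8 and 251.01 in HS_AOS, 192.31, 218.5 and 162.11 in HS_AOSFMT, and 272.6, 137.95 and 205.9 in HS_conFMT. The highest and the lowest of all 18 libraries were both HS_conFMT, and all groups overlapped. The change against control was -0.27 in HS_AOSFMT (SE 0.20, adjusted p = 0.354) and -0.10 in HS (SE 0.20, adjusted p = 0.974).

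Odc1 moved with the red cell precursors' transcripts and against those of B cells, within groups as well as between them. With the erythroid markers r was 0.823 and rho 0.808 (permutation tests over 18 libraries, adjusted p = 0.0012 and 0.0024), r was 0.732 without the 2 libraries farthest from the median, and 0.952 for deviations from the group means. With the haemoglobin genes left out of the list r was 0.899. With values rescaled to the non-haemoglobin total r was 0.874, and there the list still held the haemoglobin genes. HS_conFMT 1, with the highest Odc1, had an erythroid sum of 194600 FPKM, and HS_conFMT 2, with the lowest, had 65504. With the B cell markers r was -0.848 and rho -0.913 (permutation tests, adjusted p = 0.0012 and 0.0018), with r = -0.827 without the 2 farthest libraries and -0.829 for deviations. Shares of these lists in one RNA pool are tied to each other, so the relations are not independent. The most similar genes were Cd24a (r = 0.965), a surface protein of red cell precursors and B cells, Fbxo5 (r = 0.958), a regulator of the cell cycle, and Tspan8 (r = 0.956), a tetraspanin.

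The sign of the Odc1 change depended on the marker covariate in the fit. As deposited, Odc1 in HS_AOSFMT differed by -0.06 from HS_conFMT and -0.13 from HS_AOS (SE 0.20 each, adjusted p = 0.889 and 0.724). With the erythroid marker level as a covariate the values were 0.31 and 0.42 (limma, adjusted p = 0.0437 and 0.0224). Against HS the value went from -0.17 to 0.51, and against control from -0.27 to 0.30 (adjusted p = 0.133). With the T cell level as covariate they were 0.38 against HS, 0.31 against HS_conFMT, 0.51 against HS_AOS and 0.44 against control. These covariates were chosen after the data were seen and differ between the groups, so no direction of Odc1 is given.

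Oat (chr7:132557478-132576398), ornithine aminotransferase, varied least of the 10 genes, by 1.25-fold from 56.25 in HS_AOS 3 to 70.35 in HS_conFMT 2. Group means lay between 62.8 ± 5.68 in HS_AOS and 67.3 ± 1.72 in HS_AOSFMT (SD, n = 3), and all groups overlapped. The widest change over the comparisons other than the interaction was 0.10, in HS_AOSFMT against HS_AOS (SE 0.09, adjusted p = 0.478).

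**Figure D3:**
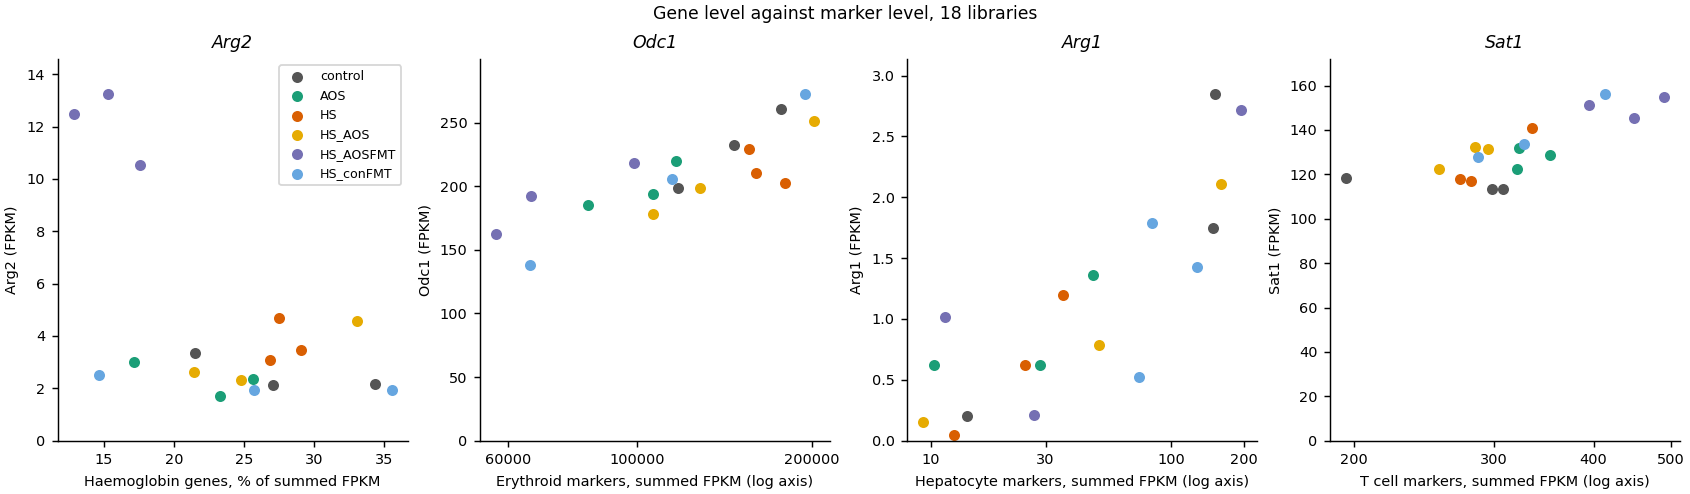
Level of 4 genes (vertical axis, FPKM) against a marker measure (horizontal axis) in the 18 libraries, coloured by group; marker sums are on a log axis and the haemoglobin share is linear. Odc1 is higher where erythroid markers are higher (r = 0.823) and Arg1 where hepatocyte markers are higher (r = 0.828). Arg2 is above 10 FPKM in HS_AOSFMT alone.

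Sat1 (chrX:155213132-155216449), the acetyltransferase that starts polyamine breakdown, was higher in HS_AOSFMT than in control. It stood at 145.48, 151.11 and 154.71 in HS_AOSFMT and 118.4, 113.49 and 113.31 in control. It stood at 118.05, 141.03 and 117.06 in HS, 131.47, 132.23 and 122.26 in HS_AOS, 127.78, 156.28 and 133.59 in HS_conFMT, and 128.6, 131.79 and 122.21 in AOS. Of the 15 other libraries, 1 reached the HS_AOSFMT range, HS_conFMT 2 at 156.28. The means were 150.4 ± 4.65 in HS_AOSFMT and 115.1 ± 2.89 in control (SD, n = 3), a ratio of 1.31 and a change of 0.38 (SE 0.085, limma adjusted p = 0.0122). The changes of 0.22 against HS_AOS (adjusted p = 0.110) and 0.12 against HS_conFMT (adjusted p = 0.442) did not pass, and the change against HS was 0.27. Under 3 other scalings the change against control was 0.27 to 0.34 and passed. It was no longer called without HS_AOSFMT 3 (0.36, adjusted p = 0.0566) or in a fit of these 2 groups alone (0.38, adjusted p = 0.0675).

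Sat1 moved with the T cell markers (r = 0.783, rho = 0.736, permutation tests, adjusted p = 0.00225 and 0.0171; r = 0.770 without the 2 farthest libraries). For deviations from the group means r was 0.488, so part of the relation lay between groups. The permutations ignored the groups, and the relation within groups was not tested. HS_conFMT 2, the library with the highest Sat1, also had the highest T cell sum outside HS_AOSFMT. With the T cell marker level as a covariate the Sat1 change against control was 0.22 (adjusted p = 0.429), with the erythroid level 0.29 (adjusted p = 0.165) and with the acinar level 0.37 (adjusted p = 0.0519). The genes most like Sat1 were Apbb3 (r = 0.897), Plcxd1 (r = 0.884) and Maff (r = 0.884), a small basic leucine zipper factor. Those most like Arg2 were Hip1 (r = 0.926), Bicd2 (r = 0.920) and Pde3b (r = 0.919). Pde3b, a cyclic nucleotide phosphodiesterase, stood at 18.2 ± 0.342 FPKM in HS_AOSFMT and 7.07 ± 0.665 in HS (SD, n = 3). Arg2 was high in HS_AOSFMT alone, so ranking by likeness to it favours genes high in that group. These values are therefore description.

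A list of 50 further genes of the pathway was followed, of which 43 were tested. In 5 comparisons none was called (HS against control, AOS against control, HS_conFMT against HS, HS_AOS against HS and the interaction). At an unadjusted p under 0.05 there were 6, 5, 2, 5 and 6 of the 43 in that order, beside 6.40%, 11.3%, 6.32%, 5.20% and 5.97% of all tested genes. HS_AOSFMT against control called 1 higher and 0 lower, against HS_conFMT 0 (6 unadjusted, beside 22.8% of all genes), and against HS_AOS 0 higher and 2 lower. In HS_AOSFMT against HS 1 passed the threshold, higher, given as description. Of all tested genes, 9.68% were called higher and 2.34% lower against control, 4.81% and 1.04% against HS_conFMT, 6.42% and 2.14% against HS_AOS, and 8.08% and 1.15% against HS. The median change of the 43 was -0.03 against control, -0.03 against HS_conFMT, -0.08 against HS_AOS and -0.06 against HS, below the medians of all genes given above.

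Among transporters, Slc7a6, which exchanges arginine across the cell membrane together with Slc3a2, stood at 10.7, 11.05 and 11.66 in HS_AOSFMT and 5.87, 7.73 and 8.05 in control. All 3 lay above the controls, with a change of 0.57 (SE 0.13, adjusted p = 0.0154). Without control 1 the change was 0.45 (adjusted p = 0.0729), without HS_AOSFMT 3 it was 0.54 (adjusted p = 0.0642), and with the T cell marker level as a covariate it was 0.07 (adjusted p = 0.833). Slc38a9, the lysosomal arginine sensor of the mTORC1 pathway, stood at 8.46, 8.13 and 8.10 in HS_AOSFMT and 12.36, 11.70 and 12.26 in HS_AOS. These groups were well apart, and it fell by 0.51 on the log2 scale (SE 0.09, adjusted p = 0.00499). HS_AOS held the 2 highest values of all libraries for this gene. The T cell and the acinar covariates left -0.37 (adjusted p = 0.113) and -0.42 (adjusted p = 0.136). The lysosomal polyamine exporter Atp13a2 stood at 21.82, 18.83 and 23.17 against 26.38, 28.52 and 25.21 in the same comparison. HS_AOS had the highest mean of all groups for this gene (26.7 ± 1.68, SD, n = 3). HS_AOSFMT (21.3 ± 2.22) lay next to control (20.4 ± 2.63), the lowest. The Atp13a2 change of -0.32 (SE 0.09, adjusted p = 0.0494) lost the call without any single library of these 6 (adjusted p = 0.0607 to 0.168).

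In polyamine synthesis, Mtap, which salvages methionine from the by-product of spermidine and spermine synthesis, is given because it passed the threshold in HS_AOSFMT against HS. It stood at 15.23, 15.65 and 15.26 in HS_AOSFMT and 11.84, 13.23 and 11.73 in HS, a change of 0.31 (SE 0.08) that is given as description. Over 19 alternatives the change ran from 0.14 to 0.36, and in 11 of them it no longer passed the threshold. The methionine adenosyltransferase Mat2a, with the highest level in this role, averaged 151.1 FPKM over the 18 libraries. In the control of Odc1, the antizyme Oaz1, which sends Odc1 protein to degradation, averaged 591.7 FPKM. Its level was 513.2 ± 34.0 in HS_AOSFMT and 609.8 ± 139.2 in control (SD, n = 3). The antizyme inhibitor Azin1 stood at 47.3 ± 6.61 against 66.7 ± 9.56, with a change of -0.49 (SE 0.15, adjusted p = 0.0514).

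In polyamine breakdown, Smox, the spermine oxidase, stood at 30.01, 38.32 and 27.75 FPKM in HS_AOSFMT and at 90.46, 59.59 and 41.68 in control. The groups did not overlap, but controls were spread widely, and the change of -0.92 (SE 0.31) did not pass (adjusted p = 0.0612). Smox and Sat1 are separate enzymes that were both listed under polyamine breakdown. Their changes against control had opposite signs, and that of Smox did not pass. In HS_conFMT, Smox was 76.60 in library 1 and 30.74 in library 2, the libraries with high and low erythroid sums. Per length, Eif5a, the factor that carries the spermidine-derived residue hypusine, averaged 565.1 FPKM. Its widest change was -0.13, in HS_AOSFMT against control (adjusted p = 0.419).

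No other gene of the list was called. In several further roles, the most abundant tested genes were, on average over the 18 libraries, Slc3a2 among transporters (90.1 FPKM), Pts among enzymes that make the nitric oxide synthase cofactor (39.6), Gatm in creatine synthesis (13.3), Ddah2 in the removal of methylated arginines (8.82), and, at lower levels, Nos3 among synthases (2.23) and Cps1 in the urea cycle (0.683). Slc3a2 stood at 102.01 ± 2.25 FPKM in HS and 86.96 ± 5.11 in control (SD, n = 3), a change of 0.23 (SE 0.08) that did not pass (adjusted p = 0.624). Gatm, which makes the creatine precursor from arginine, stood at 10.5 ± 0.918 in HS_AOSFMT against 14.4 ± 2.25 in HS_AOS, a change of -0.42 (SE 0.14, adjusted p = 0.0793).

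**Figure D4:**
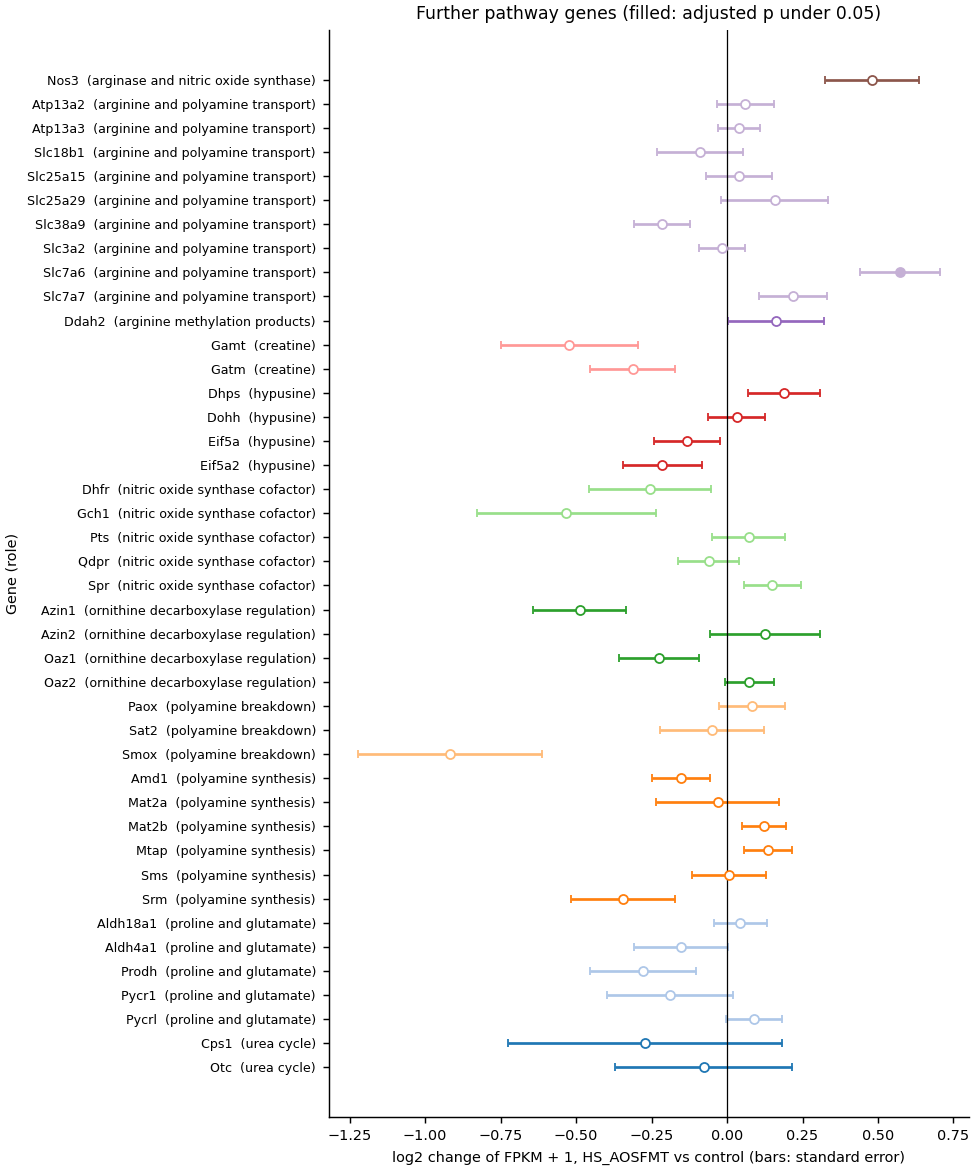
Change of log2(FPKM + 1) in HS_AOSFMT against control for the tested further genes, all but 1 of the 43, ordered by role; points are limma estimates, bars are the SE, and a filled point marks an adjusted p under 0.05. Slc7a6 (0.57) is the filled point, and Smox (-0.92) lies lowest without passing the test.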

How the data were processed

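Spleen RNA was sequenced in 18 libraries. The authors deposited 1 table of values per gene and library, taken here as FPKM, scaled by transcript length and mapped total; the table does not name its unit. The unit was inferred because their sums vary (coefficient of variation 6.14%) and length-weighted sums do not (1.61%; 18762 of 19323 symbols, 97.1%, matched to GENCODE M21). Per the submitters' processing notes, Bowtie 0.12.2 and mm10 were used; how genes were counted, by strand or with shared reads, is not given in the sources used here. No read step could be recovered from the 2-decimal values.

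Here, limma 3.58.1 (R 4.3.3; trended, robust eBayes with 12 residual degrees of freedom and 3.38 prior ones) modelled log2(FPKM + 1) by group in 1 fit of the 18 libraries. It covered the 12969 genes that reached 1 FPKM in 3 or more of them. Tests were two-sided, adjusted by Benjamini-Hochberg per comparison over all these genes (threshold 0.05), and the script was tested on simulated data. Correlations used 100000 permutations of all 18 libraries and 90 relations (10 genes, 9 marker lists). The permutations ignored the groups, so the p-values also take in differences between groups. Of the relations, 9 passed for Pearson's r and 4 for both coefficients.

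The genes, the pathway list and the marker lists were chosen with earlier results of these data known. Named are all 10 genes, called pathway genes, the most abundant pathway gene of each role and, per tested gene, the 3 most similar genes; Nos3, Azin1, Smox, Gatm, Slc3a2, Otc, Oaz3, Pycr1 and the examples of single libraries were chosen after their values were seen, and similar genes are given for 4 genes. 1 pathway gene is not reported here. Replicate numbers were checked as pairs: correlations of same-numbered libraries were -0.37 to 0.49, and HS_AOS against HS was the only comparison with all 3 above 0.1 (0.49, 0.29 and 0.37). Alternatives were pseudocount, filter, samples in the fit, replicate block, 3 scalings, libraries left out and, added later, 4 marker covariates.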

Additional observations from a re-analysis of the deposited data

How the results depend on the processing

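In the comparisons with HS_AOSFMT the counts below include Arg2, and those against HS are description. The number of the 8 tested genes called stayed at 0 under every alternative for HS, AOS alone, HS_conFMT against HS, HS_AOS against HS and the interaction. With the replicate number as a block it was 2 in place of 1 in HS_AOSFMT against HS (Sat1 added, in a comparison given as description) and moved in no other comparison, HS_AOS against HS included. Leaving out 1 library at a time gave 1 to 2 in HS_AOSFMT against HS (2 without HS 2) and 1 to 2 against control (1 without HS_AOSFMT 3). The fit of 2 groups alone gave 1 against control. The erythroid covariate gave 2 against HS, HS_conFMT and HS_AOS, and 1 against control; the T cell covariate gave 1 against control; the acinar covariate gave 0 against HS and 1 against control. The Arg2 change stayed between 1.12 and 1.68 against HS over 19 alternatives, and between 1.73 and 2.22 against control.

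The Odc1 change in HS_AOSFMT, not called as deposited, changed sign under several alternatives, and the cause was not tested. With the erythroid covariate it was 0.51 against HS, 0.31 against HS_conFMT, 0.42 against HS_AOS and 0.30 against control; with the T cell covariate 0.38, 0.31, 0.51 and 0.44 in that order; with the acinar covariate 0.033 against HS_conFMT and 0.023 against HS_AOS. With 1 library left out it ran from -0.32 (without HS_conFMT 2) to 0.17 (without HS_conFMT 1) against HS_conFMT, with 0.051 without HS_AOSFMT 3, and from -0.23 (without HS_AOS 2) to 0.013 (without HS_AOS 3) against HS_AOS.

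Of 19 alternatives, the threshold was no longer passed in 11 for Mtap (description), 12 for Atp13a2, 7 for Slc7a6, 5 for Sat1 against control and 2 for Slc38a9. Counts over all genes moved more: against HS from 1197 to 13 (acinar covariate), against control from 1558 to 30 (T cell covariate) or 3381 (without control 3), against HS_AOS from 1111 to 47 (acinar covariate), and against HS_conFMT from 759 to 176 (2 groups alone) or 1201 (without HS_conFMT 2). Without control 3, HS against control called 20 in place of 2 and AOS against control 49 in place of 1. HS_conFMT against HS (1) ran from 0 to 4, HS_AOS against HS (0) from 0 to 5 and the interaction (1) from 0 to 8. Other scalings shifted the median change of all genes by up to 0.10. Depth is unknown, so Arg1, Nos2 and Slc7a2 stand without a counting error.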

Other observations

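Oaz3, the antizyme known from testis, was at 15.15 FPKM in control 2, at 1.07 in control 1 and 0.61 in control 3, and at 0.18 or below in the 15 libraries of the other groups, 6 of which listed it at 0. It did not reach 1 FPKM in 3 libraries and was not tested.

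Pycr1, which makes proline from the product of Oat, stood at 3.90, 3.30 and 3.19 FPKM in AOS and at 1.29, 2.30 and 0.97 in control. The groups did not overlap and the means were 3.46 ± 0.382 and 1.52 ± 0.694 (SD, n = 3), but the change of 0.86 (SE 0.21) did not pass over all genes (limma, adjusted p = 0.190). Under diet and STZ it stood at 2.48, 1.63 and 1.3 with AOS and at 3.33, 2.04 and 1.99 without, and the interaction of -1.16 (SE 0.29) did not pass either (adjusted p = 0.402).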
